A study of Mus musculus with 4 samples.

Results

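The genes examined here were 9 genes of insulin signalling and insulin-driven glucose uptake, *Insr*, *Irs1*, *Irs2*, *Pik3r1*, *Akt2*, *Tbc1d4*, *Slc2a4*, *Foxo1* and *Pde3b*, of 21000 protein-coding genes with a curated start site. They were chosen by name, for their place in the pathway. The rule used no measured value, but earlier results of these data were known when the genes were chosen. Open chromatin was measured by ATAC-seq, in which a transposase inserts adapters into accessible DNA, in bulk visceral adipose tissue of 8 weeks old CD-1 mice, an outbred stock. The 2 control libraries came from descendants of dams given sesame oil. The 2 BPA libraries came from descendants of dams that received daily intraperitoneal bisphenol A at 50 mg/kg from embryonic day 7.5 to 13.5. The mice that were sampled were not themselves treated, and apart from the injected agent both groups share stock, age and tissue. The labels name the BPA animals as F3, while the study's results, methods and supplement all give F4, so that the generation is not settled here. Sex and batch are not labelled, and nothing says whether 2 libraries of a group came from separate litters. The deposited list of BPA 2 is named with replicate number 3 where its label says 2, and it was used under its label.

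Insulin binds a receptor tyrosine kinase, which phosphorylates docking proteins that recruit phosphoinositide 3-kinase, and the lipid made by that kinase activates the protein kinase Akt. In adipocytes Akt releases a brake on vesicles that carry the insulin-responsive glucose transporter to the cell surface. It also keeps Foxo transcription factors out of the nucleus and activates a phosphodiesterase that restrains lipolysis.

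Each series of 4 values is given in the order control 1, control 2, BPA 1, BPA 2, and in that order the lists held 82665, 88911, 72375 and 98060 peaks. The BPA libraries stood at the ends of the range of depth: the lowest local background, which scales with depth, was 2.85, 2.70, 1.16 and 3.80 reads, and the median peak was 567, 456, 540 and 780 bp wide. To allow for depth, each peak is given by its rank, the percentage of peaks in its own list with a q-value at least as good, so that a low rank is a strong peak. Fold is the number of reads piled up at the summit divided by the background around it in that library, with 1 added to each. With 2 libraries a group no test of BPA against control was made, since the smallest two-sided exact permutation p is 0.33, and a difference is described as non-overlapping where both libraries of one group lay beyond both of the other. A gene with no listed peak did not pass the q-value threshold of 0.05 at that depth and was not shown to be closed.

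The tissue label was checked at promoters of marker genes. All 7 adipocyte markers, among them *Adipoq*, *Plin1* and *Pparg*, had a promoter peak in every library, as did 57.9% of protein-coding genes. None of the 3 hepatocyte markers had one in any. Not all the adipocyte peaks were strong. *Adipoq* ranked 58.6%, 20.3%, 67.2% and 51.2%, *Plin1* 74.8%, 23.1%, 68.9% and 89.0%, and *Pparg* 43.2%, 33.8%, 15.8% and 7.16%. Endothelial markers differed between the groups: 1, 1, 3 and 3 of 3 had a promoter peak, with *Pecam1* and *Cdh5* listed for BPA 1 and BPA 2 but for neither control. Leukocyte markers had 2, 3, 4 and 4 of 6, mesothelial markers 2, 2, 2 and 1 of 3, epithelial markers 2, 0, 2 and 2 of 3, and skeletal muscle markers 3, 2, 2 and 2 of 5. Of the muscle markers, *Mylpf* ranked between 0.510% and 3.12% in all 4 libraries, while *Ckm* and *Myod1* had no peak in any. In bulk tissue more cells of a type and more open chromatin per cell cannot be told apart, and the part of cell makeup in the differences below was not tested. CD-1 mice also differ in sequence from one another, and the study proposes that such variants can alter factor binding between animals. With 2 libraries a group this cannot be told apart from a difference between the groups, and it was not tested.

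Some promoter sequences are given first, from the mm10 reference and not from the reads. The ranks and folds below do not depend on them. The 250 bases before the start site are shown for *Irs1* (chr1:82291440-82291689, minus strand) and for the long *Pik3r1* transcript (chr13:101768218-101768467, minus strand). Their promoter peaks had ranks that did not overlap between the groups, as had those of *Irs2* and *Foxo1*, which are not shown. For the *Slc2a4* promoter peak, which had the largest difference between group means, the bases around the BPA 2 summit are shown (chr11:69948786-69948886, plus strand). This stretch lies more than 500 bp upstream of the start sites, and the summits of the other libraries lie outside it. Here and below, where libraries share a region, its summit is that of the best-ranked peak. Capitals mark GGGCGG or its reverse complement, the box bound by Sp and Kruppel-like factors.
Irs1 promoter: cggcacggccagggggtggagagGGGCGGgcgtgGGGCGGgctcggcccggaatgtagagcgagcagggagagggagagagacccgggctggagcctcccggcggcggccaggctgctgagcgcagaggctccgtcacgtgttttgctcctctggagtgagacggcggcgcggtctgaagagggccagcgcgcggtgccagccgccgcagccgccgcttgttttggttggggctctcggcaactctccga
Pik3r1 promoter: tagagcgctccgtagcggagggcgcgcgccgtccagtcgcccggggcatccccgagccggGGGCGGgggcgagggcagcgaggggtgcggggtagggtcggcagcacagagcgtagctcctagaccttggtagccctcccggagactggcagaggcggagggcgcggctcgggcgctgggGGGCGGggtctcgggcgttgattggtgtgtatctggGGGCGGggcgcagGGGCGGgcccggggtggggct
Slc2a4 promoter peak: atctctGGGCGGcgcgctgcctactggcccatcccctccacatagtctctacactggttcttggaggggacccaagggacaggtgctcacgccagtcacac
The GGGCGG box occurs 2 times in the *Irs1* stretch, 4 times in the *Pik3r1* stretch and 1 time in the *Slc2a4* stretch. Within 100 bp of the summit it was present in 7 of 11 promoter regions of the pathway genes that were open in all 4 libraries (63.6%), and in 55.0% of all such promoter regions, counting both strands. A match describes these letters and is no evidence that a factor was bound.

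All 9 genes had a promoter peak, meaning a peak within 500 bp of a curated RefSeq start site, in all 4 libraries. Over all protein-coding genes the share was 57.9%. The 9 genes have 14 such start sites, of which 13 had a peak in every library. The exception was the internal *Pik3r1* start site at chr13:101692630 that gives a shorter transcript, where both controls had a peak (ranks 52.0% and 61.2%, folds 2.51 and 2.87) and neither BPA library did. There the merged control peaks ended 11 bp short of a peak of BPA 2 with a rank of 16.7%, which belongs to a region of intron 7 that was open in all 4 libraries. Between 250 bases before and 50 bases after the start site, the median observed to expected CpG ratio was 0.580, against 0.581 over 26237 start sites of coding genes.

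*Insr*, the receptor, starts at chr8:3279617 on the minus strand and had its promoter peak at ranks of 9.32%, 7.91%, 10.2% and 6.20%. The groups overlapped, with means of 8.61% ± 0.997 in controls and 8.21% ± 2.84 in BPA (SD, n = 2). Its fold was 5.16, 6.08, 9.50 and 8.88. Fold was higher in BPA at most promoters. Its median over coding promoters with a peak in all 4 libraries was 6.24, 7.02, 10.9 and 9.99, beside which the folds below are to be read.

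The promoter of *Irs1* (chr1:82291439, minus strand), a docking protein of the receptor, ranked 16.7%, 20.6%, 8.68% and 8.96%, better in both BPA libraries than in either control. The means were 18.7% ± 2.80 and 8.82% ± 0.197, and the mean fold was 1.78 times higher in BPA. *Irs2* (chr8:11008929, minus strand), the second docking protein of adipocytes, ranked 14.9%, 13.5%, 12.3% and 6.85%. Its groups did not overlap either, but BPA 1 lay close to the controls and only BPA 2 stood clear of them. Its promoter region is also the promoter of the non-coding gene 9530052E02Rik, and a peak there cannot be assigned to one of them.

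*Pik3r1* encodes the main regulatory subunit of phosphoinositide 3-kinase. The promoter of its long transcript (chr13:101768217, minus strand) ranked 12.0% and 13.3% in the controls and 2.25% and 2.79% in the BPA libraries, where it was the best placed of the 9 promoters. The mean fold was 4.54 ± 0.648 in controls and 8.42 ± 1.44 in BPA, and the gap between the groups exceeded the spread within either of them.

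*Akt2*, the Akt kinase that serves insulin-driven glucose uptake, has 4 curated start sites and a peak at each of them in all 4 libraries. The first, chr7:27591552 on the plus strand, ranked 15.4%, 19.4%, 16.2% and 6.28%, so that only BPA 2 lay beyond the controls. The internal start sites were weaker. The site at chr7:27596830 ranked 69.0%, 46.9%, 46.6% and 43.0%, the site at chr7:27605797 ranked 32.9%, 26.1%, 39.3% and 30.9%, and the site at chr7:27607336 ranked 76.5%, 30.2%, 58.7% and 30.9%. In BPA 2 the latter sites share one peak.

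*Tbc1d4* encodes the Rab GTPase-activating protein that holds transporter vesicles back until Akt phosphorylates it. Its promoter (chr14:101609191, minus strand) ranked 3.49%, 1.68%, 4.77% and 2.85%, the best of the 9 genes in both controls, with overlapping groups.

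*Slc2a4*, the insulin-responsive glucose transporter, showed the widest separation by q-value. Its promoter (chr11:69948197, minus strand) ranked 23.2% and 35.0% in the controls and 11.8% and 6.76% in the BPA libraries. The means were 29.1% ± 8.33 and 9.26% ± 3.54. Fold was 4.82, 4.15, 9.06 and 9.25, a ratio of means of 2.04, the highest of the 9 genes. Median fold over coding promoters was also higher in BPA, at 6.24, 7.02, 10.9 and 9.99. The summits lay at -200, -467, -438 and -639 bp from the nearer of its 2 start sites, upstream in each library. The local background at this peak was 2.34, 3.02, 5.72 and 7.22 times the lowest background of the library, and so also differed between the groups. *Slc2a4* is expressed in skeletal muscle as well as fat, and the skeletal muscle markers had peaks at 3, 2, 2 and 2 of 5 promoters. Their part in the *Slc2a4* values was not tested.

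Of the genes that act on transcription and lipolysis, *Foxo1* (chr3:52268337, plus strand), a forkhead factor restrained by Akt, ranked 14.6%, 15.9%, 14.0% and 7.01%. The groups did not overlap, by a margin of less than 1 percentage point between control 1 and BPA 1. *Pde3b* (chr7:114415254, plus strand), the phosphodiesterase through which insulin restrains lipolysis, ranked 13.5%, 48.7%, 23.4% and 10.5%, and its controls differed more than the groups did. Without control 2 the mean rank of *Pde3b* was 3.47 percentage points higher, that is weaker, in BPA than in the remaining control. Its promoter region is also that of 4933406I18Rik.

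**Figure D1:**
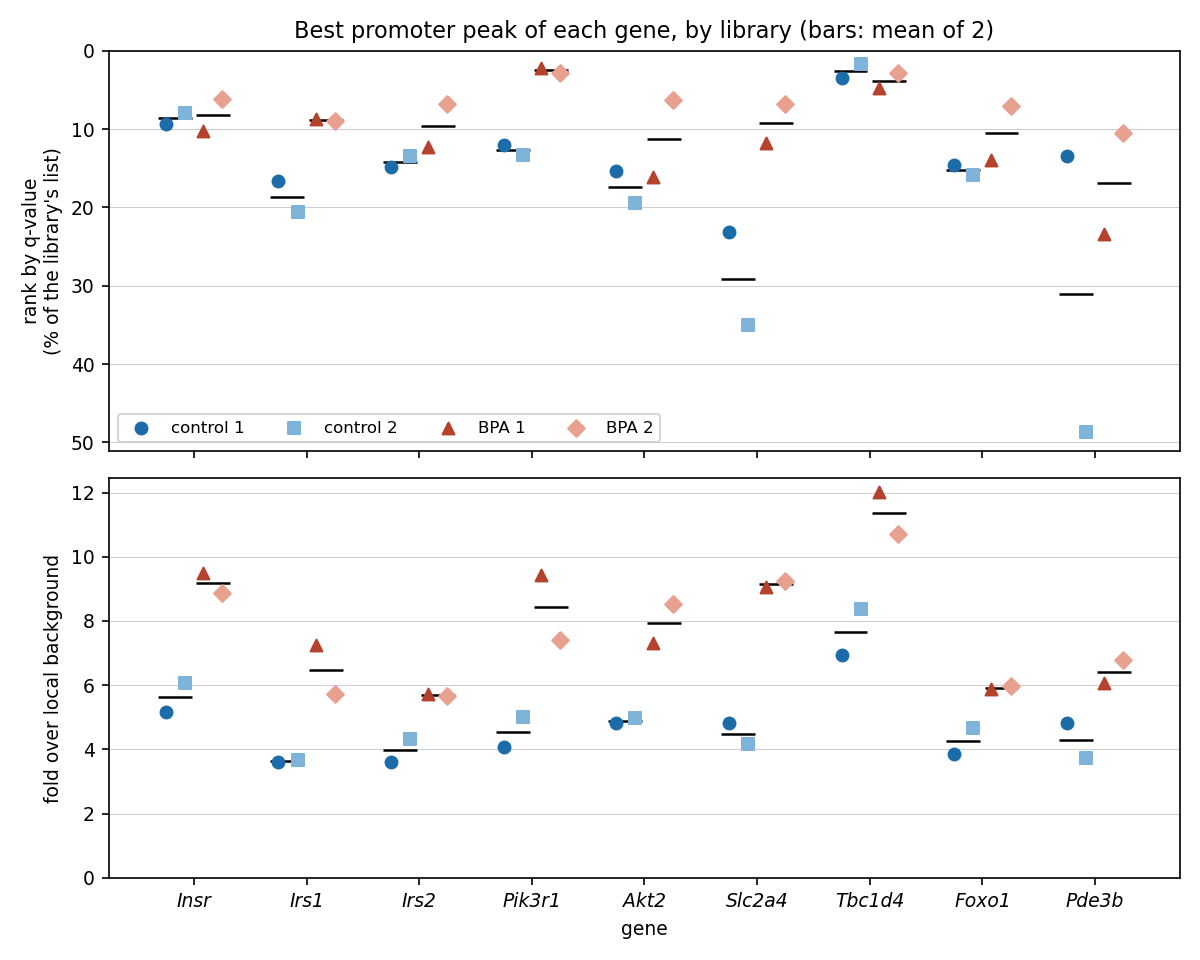
Best promoter peak of each of the 9 genes in each library, as rank by q-value in percent of the library's list (upper panel, 0 at the top is the strongest) and as fold over local background (lower panel, from 0). Points are single libraries and bars the mean of 2. The *Slc2a4* points separate most, at 23.2% and 35.0% in controls against 11.8% and 6.76% in BPA, and the *Pde3b* controls lie far apart.

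Ordered by mean rank over the 4 libraries, the promoters ran from *Tbc1d4* (3.20%) through *Pik3r1* (7.57%), *Insr* (8.41%), *Irs2* (11.9%), *Foxo1* (12.9%), *Irs1* (13.7%), *Akt2* (14.3%) and *Slc2a4* (19.2%) to *Pde3b* (24.0%). Neighbours in this order overlapped in their ranges over the 4 libraries throughout. The median over the 9 genes was 14.6%, 15.9%, 11.8% and 6.76%, weaker in each library than the median of coding promoters with a peak in all 4, which was 8.46%, 9.77%, 8.44% and 5.94%.

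Rank was better in both BPA libraries than in both controls for 5 of the 9 genes (*Irs1*, *Irs2*, *Pik3r1*, *Slc2a4* and *Foxo1*) and better in both controls for 0. Over the 12166 coding promoters with a peak in all 4 libraries these shares were 40.7% and 18.7%. With 9 genes a count of 5 is near the first share, and it is no result about the pathway. Fold was higher in both BPA libraries for all 9 genes, against 86.4% of coding promoters. The local background at the peak, in multiples of the library's lowest, was also higher in both BPA libraries for all 9, against 91.2% of coding promoters. Its median over the 9 was 4.20, 4.45, 7.26 and 9.22, and over coding promoters 2.89, 2.66, 5.70 and 6.90. A higher fold and a higher background in BPA were thus found at most promoters in these lists. Ranked by fold in place of q-value, the groups of *Irs2* and *Foxo1* overlapped and those of *Insr* did not, so that 4 genes (*Insr*, *Irs1*, *Pik3r1* and *Slc2a4*) were better in both BPA libraries. The share of all coding promoters by fold rank was not counted, so this count is no result about the pathway. *Slc2a4* had the largest difference of group means by q-value, but *Irs1* had it by fold rank and *Pde3b* without control 1.

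Beyond promoters, the loci were taken from 20 kb upstream of the first start site to the gene end. They held 86, 97, 67 and 103 peaks, or 0.104%, 0.109%, 0.0926% and 0.105% of each list. The groups overlapped (91.5 ± 7.78 and 85 ± 25.5 peaks, SD, n = 2), and the lowest and the highest count both belonged to BPA. By gene the counts were 13, 12, 9 and 15 for *Insr*, 7, 6, 3 and 7 for *Irs1*, and 3, 6, 4 and 5 for *Irs2*. They were 16, 16, 13 and 21 for *Pik3r1*, 7, 11, 11 and 10 for *Akt2*, and 18, 25, 13 and 21 for *Tbc1d4*. *Foxo1* had 8, 13, 7 and 12 peaks and *Pde3b* 13, 7, 5 and 10. BPA 1, the shallowest library, had the fewest peaks in 6 of the 9 loci. *Slc2a4*, whose gene body spans only 5912 bp, had 1, 1, 2 and 2, and no peak beyond its promoter lay inside the gene.

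**Figure D2:**
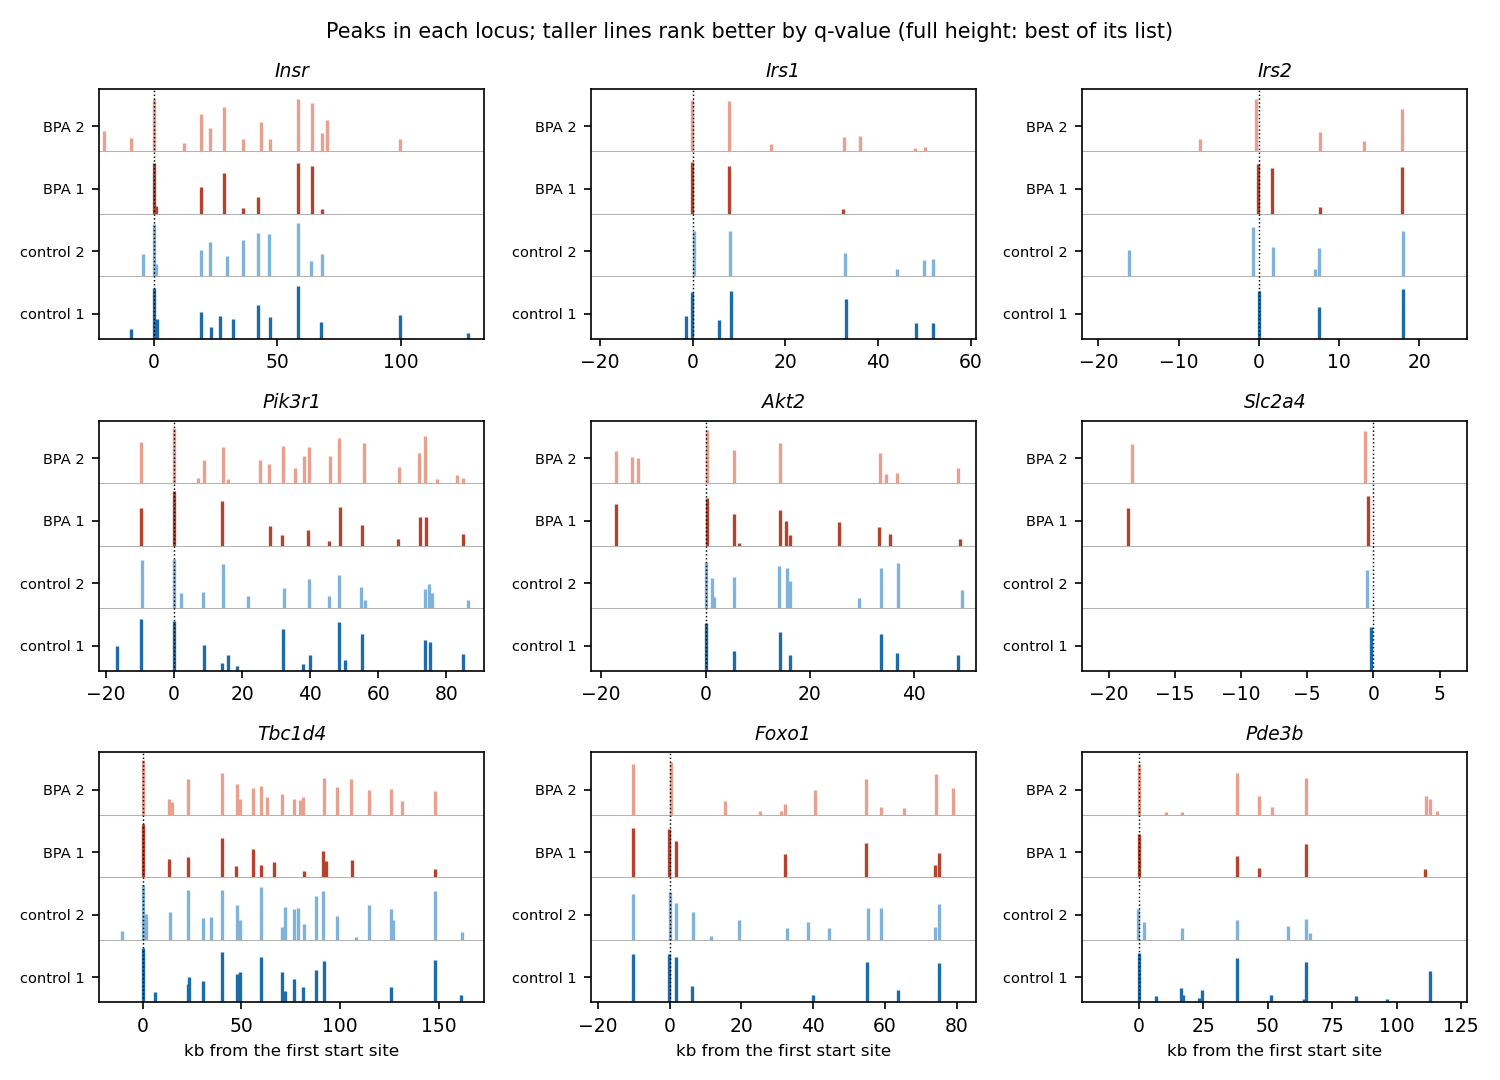
Peaks of the 4 libraries across the 9 loci, by distance of the summit in kb from the first start site in the direction of transcription (dotted line). Each line is one peak and its height is the rank, with full height for the best of the list. Tall lines at the start site recur in every library, *Tbc1d4* and *Pik3r1* carry many intronic peaks, and *Slc2a4* has 1 or 2 peaks.

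When peaks sharing at least 1 bp were merged over the 4 libraries, the loci held 146 regions. Of these 40 (27.4%) were open in all 4 libraries, against 26.3% of all 147157 regions, and 63 (43.2%) were called in a single library, against 39.5%. Single-library regions numbered 16, 19, 3 and 25, lowest in the shallow BPA 1 and highest in BPA 2. Introns held 112 regions, of which 26 were open in all 4, while 11 of the 12 promoter regions were. *Pik3r1* was the densest locus with 25.1 regions per 100 kb, and the least dense were *Slc2a4* with 7.72 and *Pde3b* with 12.6.

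The strongest shared region outside a promoter in each locus is described next. For the loci where it is intronic or upstream and its groups did not overlap in rank, the plus strand around the summit is shown. Capitals mark AP-1 (TGANTCA) and GGGCGG matches on either strand.
Insr intron 2, chr8:3221112-3221212: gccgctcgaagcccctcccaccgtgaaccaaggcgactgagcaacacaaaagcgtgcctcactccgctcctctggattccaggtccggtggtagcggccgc
Irs1 intron 1, chr1:82283441-82283541: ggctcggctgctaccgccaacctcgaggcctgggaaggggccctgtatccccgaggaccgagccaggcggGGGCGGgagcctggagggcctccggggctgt
Pik3r1 upstream, chr13:101777784-101777884: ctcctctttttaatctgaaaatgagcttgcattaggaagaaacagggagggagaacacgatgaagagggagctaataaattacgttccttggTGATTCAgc
Akt2 intron 4, chr7:27625095-27625195: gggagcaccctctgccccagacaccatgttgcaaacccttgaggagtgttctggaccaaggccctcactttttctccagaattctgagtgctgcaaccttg
Tbc1d4 intron 1, chr14:101568864-101568964: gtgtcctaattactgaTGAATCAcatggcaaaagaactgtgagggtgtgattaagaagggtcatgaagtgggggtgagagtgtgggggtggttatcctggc
Foxo1 upstream, chr3:52258034-52258134: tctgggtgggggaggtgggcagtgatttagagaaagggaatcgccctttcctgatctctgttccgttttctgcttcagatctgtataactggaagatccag

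In *Insr* the region chr8:3220425-3222230 in intron 2 ranked 5.72%, 4.48%, 9.17% and 7.22%. By rank it was stronger than the *Insr* promoter in both controls and in BPA 1, and better placed in controls than in BPA. Its folds of 6.19, 8.52, 10.2 and 9.02 gave the reverse order, higher in both BPA libraries. In *Irs1* the region chr1:82282807-82284238 in intron 1 ranked 16.2%, 19.5%, 14.9% and 10.6%, better in BPA, close to the ranks of its promoter in controls. In *Irs2* the region chr8:10990495-10991538 in intron 1 ranked 11.7%, 21.0%, 17.0% and 26.7% and the groups overlapped.

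*Pik3r1* had its strongest such region upstream, at chr13:101776688-101778485 with the summit at -9617 bp. It ranked 9.03% and 15.8% in controls and 34.8% and 29.1% in BPA, the opposite direction to the *Pik3r1* promoter. Fold there was 7.37, 7.01, 7.96 and 8.54 and gave the reverse order, in lists where fold was generally higher in BPA. In *Akt2* the region chr7:27624544-27625751 in intron 4 ranked 36.6%, 29.5%, 71.6% and 49.5%, better in both controls. Its folds of 3.70, 4.01, 3.78 and 3.44 overlapped.

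*Tbc1d4* had the most regions of the 9 loci, 31, of which 8 were open in all 4 libraries. Among the 7 of these outside its promoter 4 ranked better in both controls and 0 in both BPA libraries. Over such regions of the whole series these shares were 31.7% and 21.6%. With only 7 regions, whether *Tbc1d4* differs from the series was not tested. Apart from the strongest, the 4 are described because of their values. The strongest of the 4, chr14:101568319-101569774 in intron 1, ranked 10.3%, 12.6%, 31.0% and 27.7%. Its folds of 6.69, 6.95, 7.85 and 7.36 gave the reverse order, higher in both BPA libraries. The region chr14:101549091-101549841 in intron 1 ranked 21.4% and 6.24% in controls against 82.3% and 50.5% in BPA, with folds of 5.23, 8.23, 3.81 and 4.51. The widest gap was at chr14:101460383-101461346, which ranked 25.3%, 13.1%, 90.8% and 61.5%, with folds of 5.88, 7.92, 3.89 and 5.21. In these last regions fold was lower in both BPA libraries too. The fourth, chr14:101516239-101518932, ranked 28.1%, 14.4%, 55.5% and 35.9% while its folds of 4.14, 5.54, 4.72 and 5.01 overlapped. The *Tbc1d4* promoter did not share this order.

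In *Foxo1* the region chr3:52257777-52258921, with its summit at -10253 bp, ranked 14.0%, 20.1%, 12.2% and 10.7%, better in BPA and about as strong as the *Foxo1* promoter in controls. In *Pde3b* the region chr7:114479084-114480630 in intron 1 ranked 29.7%, 67.1%, 43.5% and 37.2% with overlapping groups, and control 2 was again the weakest. *Slc2a4* had no shared region outside its promoter.

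Over the 29 shared regions outside promoters, 11 ranked better in both controls, 3 in both BPA libraries and 15 overlapped. Over the 26280 such regions of the whole series 31.7% ranked better in both controls and 21.6% in both BPA libraries, so that controls led in both. Stricter settings were counted only over all shared regions of the loci, promoters included, of which 11 ranked better in controls and 9 in BPA. These became 2 and 9 when peaks needed a −log10 q of 5 or more. They became 1 and 7 with the best 20000 peaks of each library, and 12 and 10 with equal numbers of peaks. Regions outside promoters were not counted alone under these settings. Of the 11 shared promoter regions, 3 of them from *Akt2*, 6 ranked better in both BPA libraries and 0 in both controls. Of these 6, 1 was a weak internal *Akt2* start site. The share over all promoter regions was not counted, and over coding promoters, counted by gene, it was 40.7% and 18.7%. With 11 regions the count is no result about these loci. These counts leaned in opposite directions for promoters and other regions, as the shares did over the series. Whether the insulin loci differ from the rest was not tested.

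**Figure D3:**
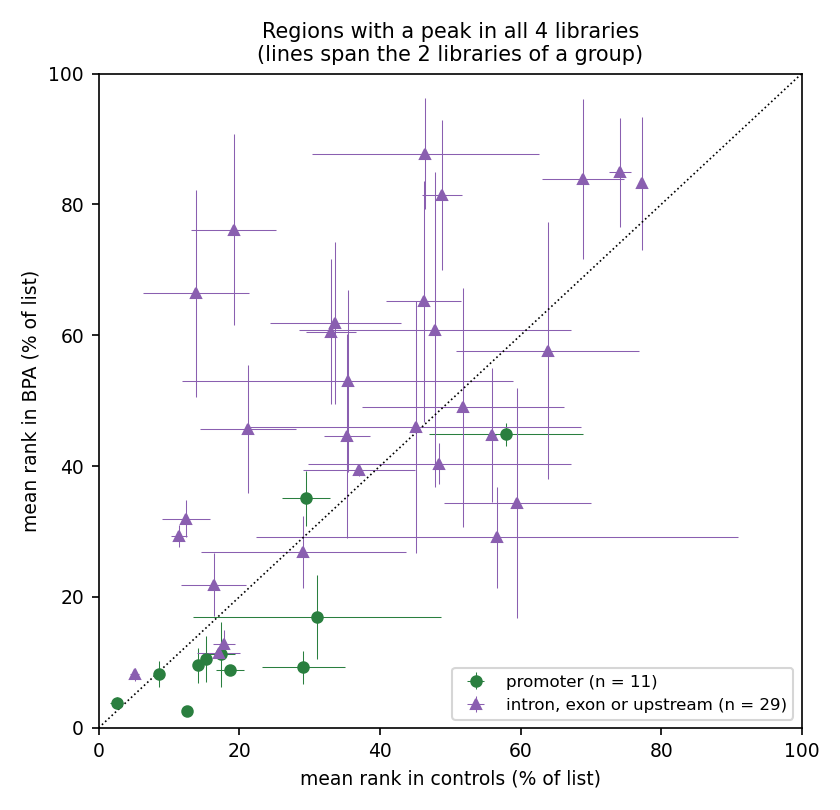
Mean rank in the 2 BPA libraries against mean rank in the 2 controls for the 40 regions with a peak in all 4 libraries, in percent of the list, with lines spanning the 2 libraries of a group and a dotted line of equality. Of the 11 promoter regions (circles) 6 lie below the line without overlap of the groups, and of the 29 other regions (triangles) 11 lie above it without overlap.

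In the motif search, the 29 shared regions outside promoters held AP-1 in 4 (13.8%, against 12.1% of such regions in the series), the C/EBP letters TTGCNNAA in 6 (20.7% against 16.0%), the nuclear factor I letters TTGGCA in 2 (6.90% against 22.3%) and the forkhead letters GTAAACA in 2 (6.90% against 2.90%). The CTCF core AGGGGGC was in 3 (10.3% against 4.67%), the nuclear receptor letters AGGTCA in 2 (6.90% against 14.7%), and GGGCGG in 4 (13.8% against 8.48%). The ETS letters CCGGAAG and the estrogen-related receptor letters TCAAGGTCA were in 0. AGGTCA is contained in TCAAGGTCA, and both strands were searched. With 29 regions each count is small and no difference was tested.

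Regions with peaks in both libraries of one group and in neither of the other numbered 10 for BPA (6.85% of 146, against 9.4% of all regions) and 6 for controls (4.11%, against 5.33%). Both shares lay near the background. Without BPA 1 the BPA count was 35, and without control 1 the control count was 26. Such counts can only rise, since the group then needs a peak in its remaining library alone. They therefore do not measure how far the result depends on a library. The plus strand around the summit follows for those that ranked best, with AP-1 matches in capitals.
Insr intron 2, BPA, chr8:3251217-3251317: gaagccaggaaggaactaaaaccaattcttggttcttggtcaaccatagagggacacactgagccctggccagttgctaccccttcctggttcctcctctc
Akt2 upstream, BPA, chr7:27574302-27574402: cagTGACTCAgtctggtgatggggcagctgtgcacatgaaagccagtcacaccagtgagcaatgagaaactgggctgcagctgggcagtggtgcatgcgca
Slc2a4 upstream, BPA, chr11:69966370-69966470: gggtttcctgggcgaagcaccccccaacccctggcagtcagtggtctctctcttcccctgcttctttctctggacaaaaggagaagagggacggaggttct
Tbc1d4 intron 1, controls, chr14:101521506-101521606: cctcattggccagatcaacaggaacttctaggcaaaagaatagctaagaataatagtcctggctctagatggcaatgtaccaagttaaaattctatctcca

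Of the 10 regions open in BPA, the best placed was in intron 2 of *Insr* at chr8:3250860-3251613, with ranks of 29.2% and 21.6% and folds of 6.56 and 6.24. A control 2 peak of rank 66.7% lay 652 bp away. The region at chr7:27574067-27574691, at -17200 bp from *Akt2*, ranked 27.7% and 44.4% and lies inside the neighbouring gene 2310022A10Rik, with no control peak within 16351 bp. The region at chr11:69965704-69967119, at -18223 bp from *Slc2a4*, ranked 34.1% and 32.7% and covers the promoter of *Cldn7*, a tight junction gene of epithelia, so it cannot be assigned to one of these genes. The epithelial markers given above had peaks at 2, 0, 2 and 2 of 3 promoters.

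The other 7 were intronic and mostly weak. In *Tbc1d4* the regions chr14:101503102-101503818 (intron 3) and chr14:101552917-101553788 (intron 1) ranked 72.3% and 39.1%, and 53.1% and 54.6%. In *Pik3r1* chr13:101701789-101702824 (intron 5) ranked 93.2% and 75.8%, and chr13:101739572-101740389 (intron 2) ranked 68.7% and 69.8%. The region of *Tbc1d4* intron 3 in BPA 2 was the strongest peak among these. In *Pde3b* chr7:114461644-114462051 (intron 1) ranked 87.5% and 70.1%, and chr7:114525895-114526537 (intron 11) ranked 90.8% and 70.1%. In *Akt2* chr7:27625850-27626962 (intron 4) ranked 83.5% and 89.0% and lay 98 bp from a control 1 peak.

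Of the 6 regions open in controls, the best placed was in intron 1 of *Tbc1d4* at chr14:101521383-101521776, with ranks of 44.8% and 24.0%, folds of 3.57 and 4.70, and a BPA 1 peak 2767 bp away. *Tbc1d4* held 2 more, chr14:101578411-101578747 in intron 1 (65.3% and 64.3%) and chr14:101447334-101448075 over coding exon 18 (92.7% and 91.3%). The others were the internal *Pik3r1* start site described above, chr1:82239288-82239673 in intron 1 of *Irs1* (75.1% and 73.1%) and chr3:52274445-52275361 in intron 1 of *Foxo1* (75.9% and 53.6%). Apart from the first, these regions ranked in the weaker part of the lists, at 52.0% or beyond.

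The wider pathway was read from 52 further genes listed by textbook role. Their promoters had a peak in all 4 libraries for 48 (92.3%, against the 57.9% of coding genes given above). All 12 receptor-proximal genes, 10 of 11 genes of the lipid kinase and protein kinase arm, 8 of 9 inhibitors, 11 of 12 genes of glucose uptake and transporter vesicles, and 7 of 8 targets were among them. Among the exceptions, *Ptprf*, a receptor tyrosine phosphatase, had a promoter peak in BPA 2 alone (59.8%). *Vamp2*, a vesicle fusion protein, lacked one in control 2 alone (50.3%, 16.9% and 9.46% in the others). *Igfbp1*, a secreted binding protein of insulin-like growth factors typical of liver, had none.

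Of the 48 genes, 29 (60.4%) ranked better in both BPA libraries and 5 (10.4%) in both controls, where coding promoters gave 40.7% and 18.7%. The 5 were *Shc1*, an adaptor of the receptor, *Pik3ca*, a catalytic subunit of phosphoinositide 3-kinase, the kinases *Mtor* and *Prkci*, and *Pck1*, an enzyme of gluconeogenesis and of glycerol synthesis in fat. The counts in favour of BPA were 8 of 12 in the receptor-proximal list, 5 of 10 in the kinase arm, 5 of 8 among inhibitors, 5 of 11 in glucose uptake and 6 of 7 among targets, and inhibitors and activators thus leaned the same way. Median ranks of the 48 were 8.93%, 12.3%, 6.11% and 4.87%. The genes were picked with earlier results of these data known, and whether this share exceeds that of other lists was not tested.

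**Figure D4:**
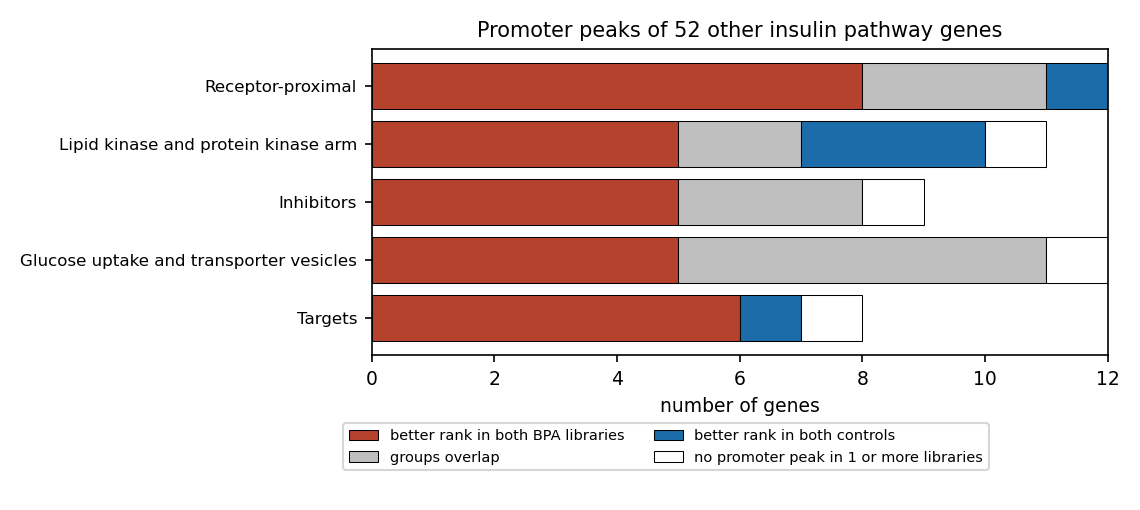
Number of genes in 5 lists of other insulin pathway genes, 52 in all, by the order of their promoter ranks: better in both BPA libraries (red), overlapping (grey), better in both controls (blue), or without a promoter peak in 1 or more libraries (white). Red is the longest part in 4 of the 5 lists, and in glucose uptake 6 of 11 genes overlapped.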

How the data were processed

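ATAC-seq peak lists of 4 libraries, 2 control and 2 BPA, were analysed as deposited. The authors trimmed reads with Trim Galore, mapped them to mm10 with Bowtie2 2.3.5.1, dropped reads without a unique position, removed PCR duplicates with SAMtools and ran MACS2 2.2.7.1 separately for every library. Each deposited list gave, per peak, a score, a fold (ratio of the summit pile-up to local background), a −log10 p-value, a −log10 q-value and the summit offset. Reads, and hence library totals, were not analysed here. CD-1 reads were mapped to a reference of another strain.

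Pile-up and background were recovered from the deposited fold and −log10 p-value under the Poisson model, within a tolerance of 0.0001, for 100% of peaks, and the solver was tested on simulated data (100% of 20000 simulated pile-ups recovered). Rank is the percentage of a list's peaks with a −log10 q-value at least as high. Promoters were 500 bp either side of curated RefSeq start sites (45756 transcripts, GRCm38, the assembly mm10 names), and loci ran from 20 kb upstream to the gene end. Every peak lay within the lengths of that assembly. Peaks of the libraries sharing 1 bp were merged into regions, and the summit of a region is that of its best-ranked peak. Regions described singly were every promoter region, every region of both libraries of one group and neither of the other, for each gene the shared region outside promoters with the best worst rank, and the other *Tbc1d4* regions better ranked in both controls, which were added after their values were seen. Of the pathway list, genes lacking a promoter peak in a library were named by rule, apart from 1 that is not reported here, and those better ranked in both controls after their values were seen.

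Python 3.11.15, numpy 2.4.6, scipy 1.17.1, pandas 2.3.3 and matplotlib 3.10.9 were used. No test was made between groups of 2. The genes, lists, motifs and markers were chosen with earlier results of these data known. The alternatives were stricter peak sets, equal list lengths, other locus, promoter and merging rules, rank by fold or p-value, predicted transcripts, summits only, and leaving out each library. The promoter rank without each library was added after seeing the data. No column belonged to another series.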

Additional observations from a re-analysis of the deposited data

How the results depend on the processing

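The mean number of the 9 genes with a promoter peak per library was 9 in both groups under the alternatives tried, except for 8 in controls with the best 20000 peaks, and 8 in controls and 8.5 in BPA where only summits counted. Of 83 alternatives for counts and means 65 stayed within 1.5 times the reported value or within the spread of replicates. The difference in peaks per library was scored as staying where it moved by less than the larger group SD (25.5). The 65 therefore include changes of its sign. With peaks of a −log10 q-value of at least 5, the 40 regions open in all 4 libraries became 24, the 6 of controls alone became 2, and the 11 shared regions better ranked in both controls became 2, while the 9 better ranked in both BPA libraries stayed 9. The difference in peaks per library in the loci turned from -6.5 to 14.5 (42, 58, 45 and 84 peaks). With the best 20000 peaks of each library the regions open in all 4 were 10, those of controls alone 3, those of BPA alone 1, those better ranked in controls 1 and those better ranked in BPA 7. With 50 kb upstream the 9 shared regions better ranked in both BPA libraries became 15. Leaving out each library in turn gave differences in peaks per library of -24.5 (without BPA 2) to 11.5 (without BPA 1), 41 to 49 regions open in all remaining libraries, 12 to 35 of BPA alone (35 without BPA 1), 6 to 26 of controls alone (26 without control 1, 23 without control 2 and 16 without BPA 2), 10 to 17 better ranked in BPA and 18 to 24 better ranked in controls. Fewer libraries make each of these criteria easier to meet. Ranking by fold moved the BPA minus control difference in promoter rank to -9.14 points for *Insr*, -27.4 for *Irs1*, -9.45 for *Irs2*, -22.3 for *Pik3r1* and -0.805 for *Tbc1d4*, and the cause was not tested. By fold rank *Irs2* and *Foxo1* lost, and *Insr* gained, groups without overlap, and the largest difference passed from *Slc2a4* (-27.0) to *Irs1*. Without control 1 it passed to *Pde3b* (-31.8 against -25.7 for *Slc2a4*). Of 63 such differences 59 kept their sign, and those that did not were *Insr* without control 1 or without BPA 2, *Pde3b* without control 2, and *Tbc1d4* by fold. No paired analysis was possible because the result comes from no test and replicate numbers are not said to mark a shared animal, litter or day. BPA 1 was the shallowest library and limits which weak peaks could be listed in both BPA libraries.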
